A study of Xenopus tropicalis with 12 samples.

Results

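A group of 24 genes, of 19921 counted, had higher RNA levels in Xenopus tropicalis tadpole intestine lacking both thyroid hormone receptors than in wild-type intestine at each of 2 developmental stages, while the level in each genotype stayed within 2-fold between the stages. The genes were chosen by these values. The read counts of each library were divided by a size factor (the median ratio of the library's counts to the geometric mean over all libraries, taken over the 12983 genes with at least 1 read in all 12 libraries), and the resulting normalised read counts were averaged within each group. A gene was selected on a mean of at least 50 in knockout intestine at stage 54, a mean at least 4-fold that of wild type at both stages, and a change of less than 2-fold between stages in each genotype. The genotype ratios and the small change between stages are therefore properties of the choice, given here as a description. The rule did not use the spread between libraries, although it used every library through the group means.

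The knockout animals, named TRDKO, carried knockout mutations of both TRα and TRβ, and the wild-type animals carried none. The groups were TRDKO at stage 61, wild type at stage 61, TRDKO at stage 54 and wild type at stage 54, with 3 libraries each. Stage 54 is premetamorphic and stage 61 is metamorphic climax, and the labels name no hormone treatment. RNA was taken from whole intestine, sequenced after poly-A selection, and the libraries held 20112705 to 37936503 reads assigned to genes. TRDKO animals came from parents that lacked TRα and carried 1 mutant copy of TRβ. The study used more than 1 TRβ deletion, and the labels do not say which one each library carried. Such parents have no wild-type offspring, so the wild-type animals had other parents, and the loss of the receptors and a difference in genetic background cannot be told apart.

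Thyroid hormone receptors are nuclear receptors that sit on the DNA of their target genes. Without thyroid hormone they recruit corepressor complexes and hold such genes down, and with hormone they recruit coactivators and raise them. In the tadpole intestine the rise of hormone at metamorphosis brings death of the larval epithelium and the formation of adult epithelial stem cells, together with growth of connective tissue and muscle. In bulk RNA a change in the share of a cell type and a change in the RNA of each cell cannot be told apart.

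The count table identifies genes by Ensembl number only, and 0 of its 19921 identifiers matched the gene table at hand. The 24 genes are therefore given by identifier, with no name or function, and neither intestinal cell type markers nor the TRα and TRβ transcripts were looked up. The genotype labels were for that reason not checked against the targeted genes.

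One library stood apart. Over tested genes with at least 20 reads in a pair of libraries, the median squared difference between libraries of 1 group was 1.17 to 1.88 times that of read sampling alone in 10 of the 12 within-group pairs, and 27.3 to 30.7 times in the pairs that held TRDKO stage 54 replicate 3. Group means, ratios and calls at stage 54 include this library unless stated, and the main counts and medians are also given without it.

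Of the 19921 genes, 11109 reached the mean of 50 in TRDKO at stage 54, and 802 of these were at least 4-fold above wild type there. At stage 61, 151 of the 802 were also at least 4-fold above wild type. Within these 151, 49 changed by less than 2-fold between stages in wild type and 24 did so in TRDKO too. The other 127 passed both genotype thresholds but not the limits on change between stages. The limits cut through a continuous range of values. The members nearest the thresholds had a TRDKO stage 54 mean of 51.2, a genotype ratio of 4.07 at stage 61 and a ratio of 4.23 at stage 54, and the genes that missed only that 1 threshold came as close as 30.8, 3.85 and 3.92. For the ratio of stage 61 to stage 54 in TRDKO, members ran from 0.547 to 1.95, and the nearest genes outside were at 0.437 and 2.004. In wild type the members ran from 0.524 to 1.996, with the nearest genes outside at 0.458 and 2.38.

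At stage 61 the TRDKO means ran from 48.7 to 5102 with a median of 404, and the wild-type means from 0.754 to 958 with a median of 21.7. The TRDKO to wild-type ratio had a median of 10.8 at this stage, with a lowest value of 4.07, and it was 10 or more for 13 genes. At stage 54 the TRDKO means ran from 51.2 to 7069 with a median of 388 (378 without TRDKO replicate 3), and the wild-type means from 0.900 to 1654 with a median of 25.7. The ratio there had a lowest value of 4.23 and a median of 7.83 (9.87 without TRDKO replicate 3), and 9 genes had a ratio of 10 or more at both stages, with replicate 3 or without it. The stage 61 ratio was above the stage 54 ratio for 11 genes and below it for 13, and without replicate 3 it was above for 8 and below for 16. The plot of each gene in each library shows both stages.

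**Figure D1:**
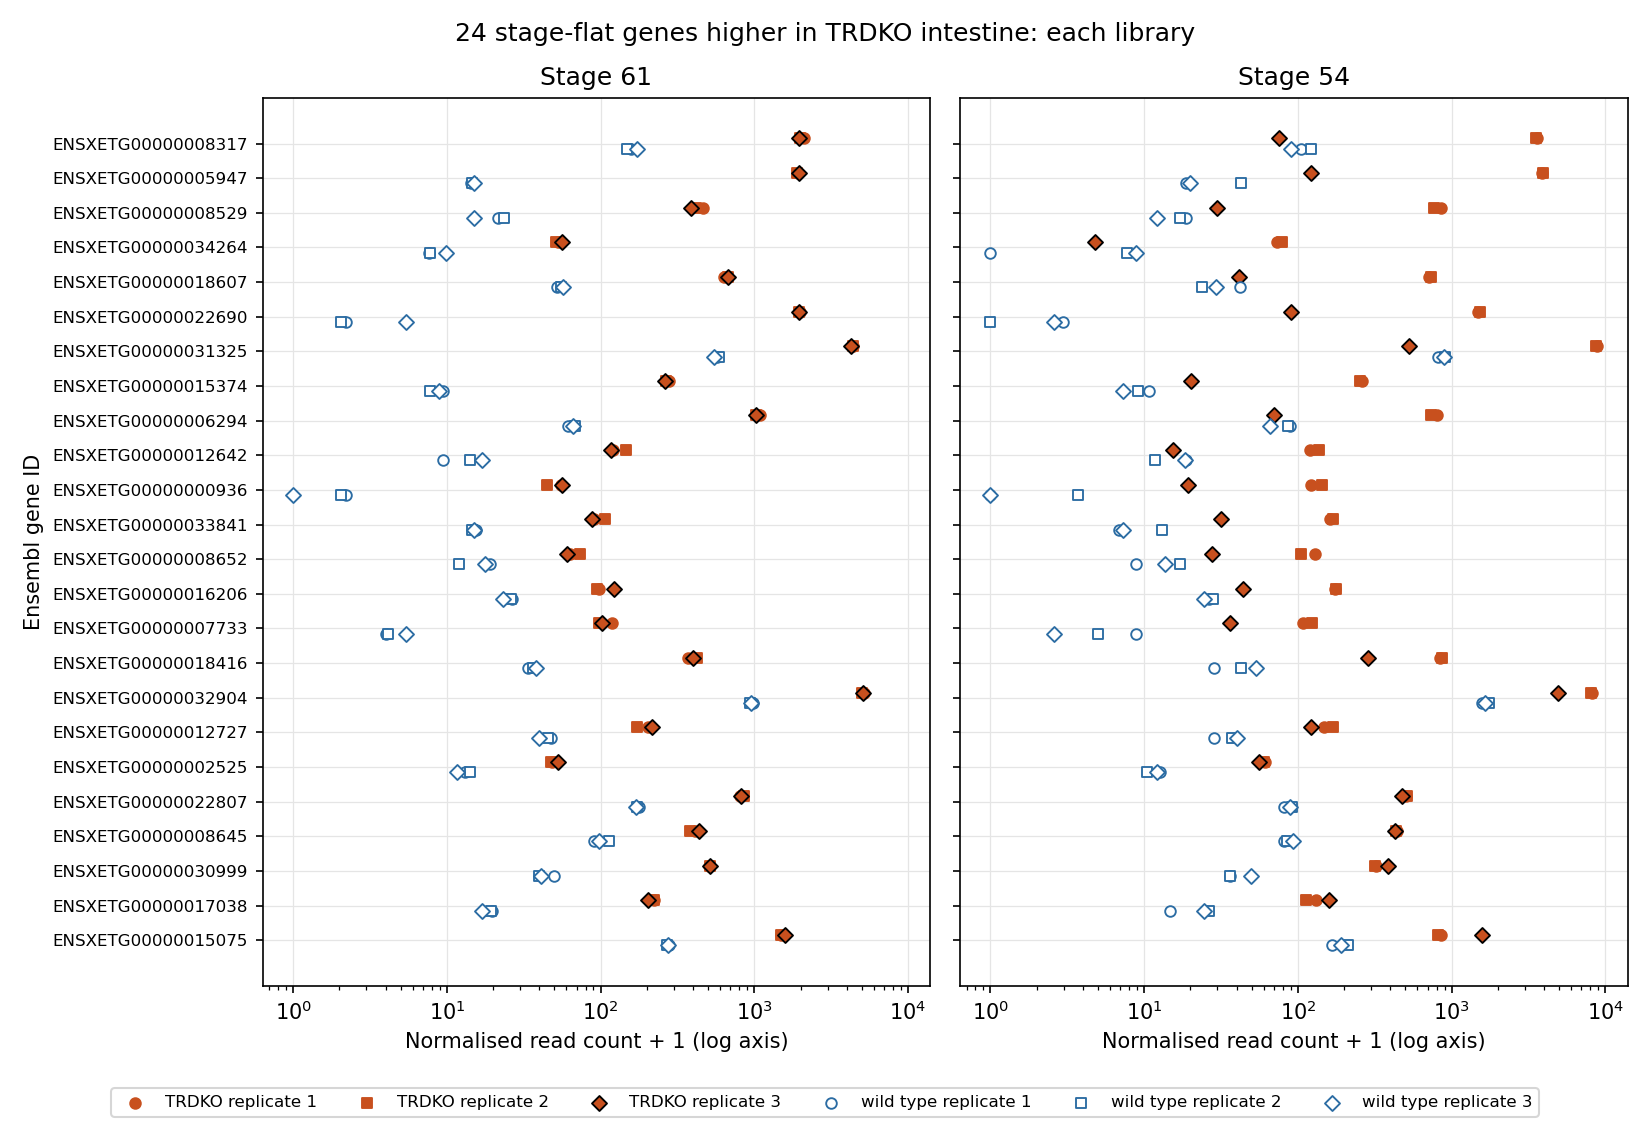
Normalised read counts plus 1 (log axis) of the 24 genes in each library, at stage 61 (left) and stage 54 (right), with TRDKO libraries filled and wild-type libraries open; genes are ordered from the lowest share of TRDKO replicate 3 at stage 54 (top) to the highest. At stage 61 every TRDKO point lies above every wild-type point of the same gene, and at stage 54 replicate 3 (diamonds) falls at or under the highest wild-type library for 6 genes. Of all genes tested, 38.8% had no overlap in this direction at stage 61 and 34.9% at stage 54. The rule required a ratio of means of at least 4 at both stages.

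By edgeR's quasi-likelihood test over the 13954 genes, at an adjusted p under 0.05 and a difference of over 2-fold, all 24 genes were called higher in TRDKO at stage 61, where 14.1% of the genes tested were called higher. All 24 were called higher at stage 54 by the same criteria, where the share of genes tested was 21.7%. Without TRDKO stage 54 replicate 3 all 24 were also called, and the share in that fit is not given. The median log2 difference between TRDKO and wild type over the 24 was 3.40 at stage 61 and 2.97 at stage 54, beside -0.11 and 0.12 over all genes tested. These calls rest on the contrasts that chose the genes, and nothing is read from them. At stage 61 the lowest TRDKO library lay above the highest wild-type library for all 24 genes (38.8% of genes tested had groups that did not overlap in this direction), by 3.29- to 440-fold with a median of 8.70-fold. At stage 54 this held for 18 of 24 (34.9% of genes tested).

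The spread between libraries was not alike in the groups. The coefficient of variation over the 3 libraries had a median of 4.85% in TRDKO and 9.14% in wild type at stage 61. At stage 54 it was 63.2% in TRDKO and 22.3% in wild type. This coefficient includes read sampling, which weighs more where reads are few, and the rule chose genes with lower counts in wild type. The medians therefore do not compare the groups beyond read sampling. Set against read sampling over tested genes, only the pairs with TRDKO stage 54 replicate 3 stood apart, at 27.3 to 30.7 times beside 1.17 to 1.88. The highest wild-type coefficient of variation, 173%, belonged to a gene with 2 reads in all 3 libraries together. In TRDKO at stage 54, replicates 1 and 2 had nearly the same values, with a ratio between 0.851 and 1.24, and differed by less than 20% for 23 of the 24 genes. Replicate 3 was the lowest TRDKO library for 21 genes and the highest for 3. It held under 50% of the mean of replicates 1 and 2 for 16 genes, with a median over the 24 of 20.7% and a range of 2.10% to 189%.

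Set against the wild-type mean of stage 54, replicate 3 divided the genes. It was 4-fold or more above wild type for 11 genes, 2- to 4-fold for 5 and under 2-fold for 8. By replicates 1 and 2 alone all 24 were at least 4.44-fold above wild type with a median of 9.87-fold, whereas by replicate 3 alone the median was 3.64-fold and the lowest value 0.609-fold. Since the rule set the mean of the 3 libraries, a low replicate 3 requires high values in replicates 1 and 2, and these ratios are a description. The genes were high in the knockout at both stages by the group means that chose them, but not in every TRDKO library.

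**Figure D2:**
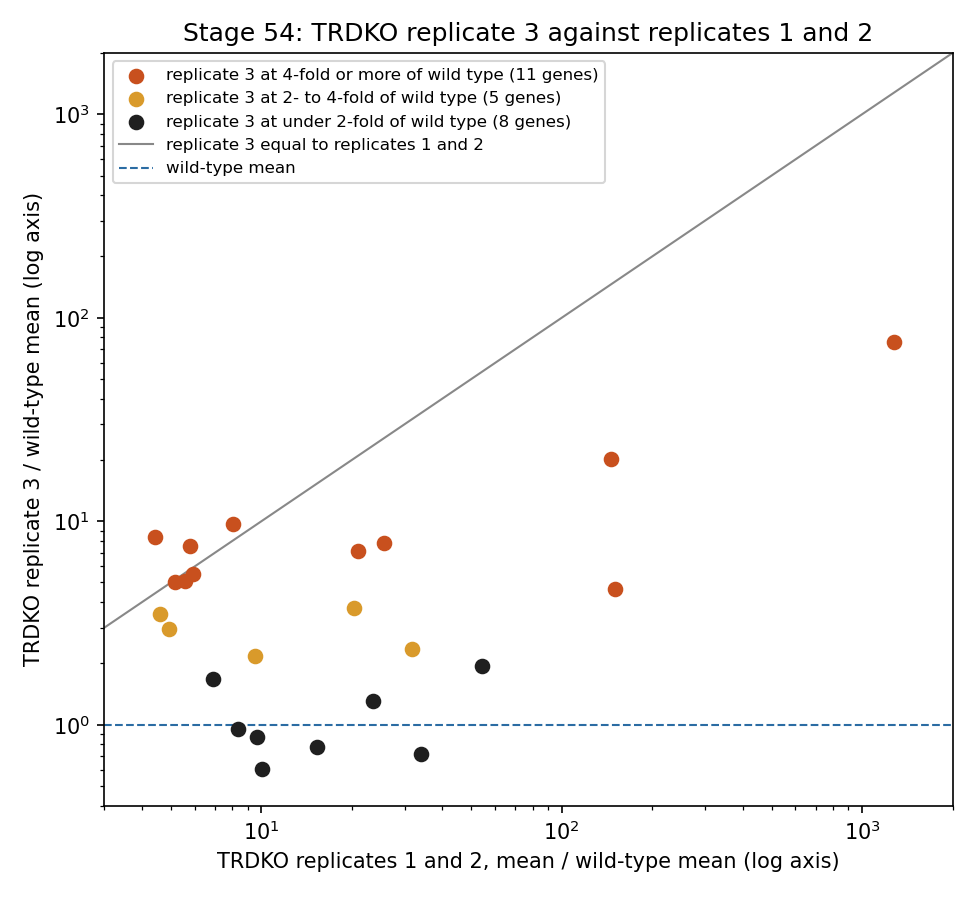
Each point is 1 of the 24 genes, with the TRDKO to wild-type ratio at stage 54 from replicates 1 and 2 (x axis) and from replicate 3 (y axis), both log axes. The 8 black points lie under 2-fold in replicate 3 although their ratio by replicates 1 and 2 was 6.89 to 54.3.

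The 8 genes with replicate 3 under 2-fold of wild type were ENSXETG00000031325, ENSXETG00000008317, ENSXETG00000008529, ENSXETG00000006294, ENSXETG00000018607, ENSXETG00000016206, ENSXETG00000012642 and ENSXETG00000034264. Their ratio by replicates 1 and 2 was 6.89 to 54.3 with a median of 12.7, and by replicate 3 it was 0.609 to 1.94 with a median of 0.907. At stage 61 the same 8 genes were 4.29- to 22.1-fold above wild type by the group means, with a median of 11.2-fold. All 3 TRDKO libraries of that stage lay above every wild-type library for each of the 8. This held for 38.8% of all genes tested, and the rule had chosen the 8 at 4-fold or more at that stage.

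The largest departure was that of ENSXETG00000008317. At stage 61 its normalised counts were 2096, 1976 and 1959 in TRDKO, against 156, 149 and 171 in wild type. At stage 54 they were 3591, 3516 and 74.7 in TRDKO, against 104, 120.1 and 90 in wild type. TRDKO replicate 3 at stage 54 thus lay below all 3 wild-type libraries, at 2.10% of the other TRDKO libraries, while at stage 61 the groups were far apart. Its TRDKO to wild-type ratio was 12.7 at stage 61 and 22.9 at stage 54, and the stage 54 ratio was 34.0 by replicates 1 and 2.

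ENSXETG00000031325, among the genes with the most reads, behaved likewise. At stage 61 it had 4365, 4388 and 4262 in TRDKO, against 574, 588 and 549 in wild type. At stage 54 it had 8856, 8679 and 529.6 in TRDKO, against 816, 907 and 889 in wild type. Replicate 3 was again below every wild-type library. The mean in TRDKO at stage 54 was 6021 ± 4757 (SD, n = 3), against 870.3 ± 48.3 in wild type, so that the SD in TRDKO was close to the mean itself.

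ENSXETG00000008529 was 1 of the 2 genes named by their ratio under the rule stated in the processing. It had 460.2, 418 and 387 in TRDKO at stage 61, against 20.6, 22.5 and 14.1 in wild type. The stage 54 values were 857, 767 and 29 in TRDKO, against 17.6, 16.2 and 11 in wild type. Here replicate 3 stayed above the wild-type libraries, by 1.94-fold over their mean, and the ratio of means was 22.1 at stage 61 and 36.9 at stage 54.

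For ENSXETG00000006294 the stage 61 values were 1088, 1019 and 1018 in TRDKO, against 60.1, 67.6 and 65.3 in wild type. At stage 54 they were 803, 731 and 68.6 in TRDKO, against 88, 85 and 64.7 in wild type. Replicate 3 lay within the wild-type range, as it did for ENSXETG00000018607, ENSXETG00000012642 and ENSXETG00000034264. In ENSXETG00000018607 the 3 TRDKO libraries of stage 54 held 715, 736 and 40.4, against 41.1, 22.9 and 28.4 in wild type. In ENSXETG00000012642 they held 119, 136 and 14.5, against 17.6, 10.8 and 17.4 in wild type. In ENSXETG00000034264 they held 72.3, 77.4 and 3.81, against 0, 6.75 and 7.89 in wild type. In each of the 4, replicates 1 and 2 were well above all wild-type libraries and replicate 3 was among them. The last of the 8, ENSXETG00000016206, had 174, 176 and 42.7 in TRDKO at stage 54, against 25.4, 27 and 23.7 in wild type, so that its groups did not overlap.

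For 5 further genes replicate 3 was well below replicates 1 and 2 yet stayed 4-fold or more above wild type. The other gene named by its ratio, ENSXETG00000005947, had 1932, 1900.2 and 1965 in TRDKO at stage 61, against 13.4, 13.6 and 14.1 in wild type, a ratio of 141. At the earlier stage the counts were 3888, 3944 and 121 in TRDKO, against 17.6, 41.8 and 18.9 in wild type, a ratio of 101, or 149.9 without replicate 3. Replicate 3 held 3.09% of the other TRDKO libraries and was 4.64-fold above the wild-type mean, higher than each wild-type library.

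ENSXETG00000022690 was nearly without reads in wild type. At stage 61 it had 1984, 1941 and 1955 in TRDKO, against 1.21, 1.05 and 4.41 in wild type. At stage 54 it had 1479.6, 1539.8 and 89.9 in TRDKO, against 1.96, 0 and 1.58 in wild type. Even replicate 3 was far above wild type, at 76.3-fold of its mean. The wild-type libraries held 9 reads in all at stage 61 and 2 at stage 54, and from summed reads the TRDKO to wild-type ratio was 1023 (exact 95% binomial interval 538 to 2238) at stage 61 and 849 (235 to 7016) at stage 54. These intervals cover counting error only.

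ENSXETG00000000936 was likewise close to 0 in wild type. Its values at stage 61 were 54.7, 43.7 and 54.9 in TRDKO, against 1.21, 1.05 and 0 in wild type. At stage 54 they were 121, 142 and 18.3 in TRDKO, against 0, 2.7 and 0 in wild type. With 4 wild-type reads at stage 61 and 2 at stage 54, the ratio of summed reads was 60.6 (exact 95% interval 23.2 to 225) at stage 61 and 77.4 (21.2 to 643) at stage 54, so that a difference in ratio between the stages was not detectable at this depth. The remaining pair, ENSXETG00000018416 and ENSXETG00000007733, held 33.9% and 30.5% of replicates 1 and 2 in replicate 3. The first had 372, 426 and 398 in TRDKO at stage 61, against 32.8, 35.6 and 37.1 in wild type, and 836, 860.4 and 287 in TRDKO at stage 54, against 27.4, 41.8 and 52.1 in wild type. The second had 117, 96.1 and 101 in TRDKO at stage 61, against 3.03, 3.14 and 4.41 in wild type, and 106, 123 and 35.1 in TRDKO at stage 54, against 7.82, 4.05 and 1.58 in wild type. For both, the groups did not overlap at either stage. ENSXETG00000007733 had 8 wild-type reads at stage 54, where its ratio of summed reads was 18.9 (exact 95% interval 9.44 to 44.2).

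In 3 genes replicate 3 was under 50% of the other TRDKO libraries and 2- to 4-fold above wild type. ENSXETG00000015374 had 278, 264 and 261 in TRDKO at stage 61, against 8.5, 6.81 and 7.94 in wild type, and 261, 252 and 19.1 in TRDKO at stage 54, against 9.78, 8.1 and 6.31 in wild type. ENSXETG00000033841 had 162, 169 and 30.5 in TRDKO at stage 54, against 5.87, 12.1 and 6.31 in wild type. ENSXETG00000008652 had 129, 104 and 26.7 in TRDKO at stage 54, against 7.82, 16.2 and 12.6 in wild type. The TRDKO libraries were above the wild-type libraries in each of the 3, with replicate 3 nearest to them. The stage 61 ratio was 34.6, 6.68 and 4.23 in this order of genes.

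The other 8 genes had replicate 3 within 60.0% to 189% of the mean of replicates 1 and 2, with a median of 95.2%. Their coefficient of variation in TRDKO at stage 54 had a median of 13.7%, beside 76.6% for the 16 genes in which replicate 3 was under 50%. Their TRDKO to wild-type ratio was 4.07 to 12.2 at stage 61 with a median of 5.07, beside 4.23 to 881 with a median of 12.5 for the 16. At stage 54 it was 4.23 to 8.60 with a median of 5.58, beside 5.15 to 880 with a median of 16.2. The highest value at each stage was the ratio of means of ENSXETG00000022690, which rests on 9 wild-type reads at stage 61 and 2 at stage 54. The ranges overlapped at both stages. Since the rule used the ratios, this difference is given with no test.

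In 5 of the 8 genes TRDKO replicate 3 of stage 54 held 92.0% to 132% of replicates 1 and 2. ENSXETG00000022807 had 808, 863 and 821 in TRDKO at stage 61, against 177, 172 and 169 in wild type. At the earlier stage the counts were 505, 514 and 472 in TRDKO, against 80.2, 90.4 and 88.4 in wild type. Both genotypes were higher at stage 61 than at stage 54, and the genotypes did not overlap at either stage. ENSXETG00000008645 had 411, 379 and 439 in TRDKO at stage 61, against 89.2, 113 and 97.1 in wild type. The stage 54 values were 438, 437 and 428 in TRDKO, against 80.2, 83.7 and 91.5 in wild type. Its 3 TRDKO libraries of stage 54 had the smallest spread of all 24 genes, at a coefficient of variation of 1.32%.

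ENSXETG00000030999 had 507, 512 and 512 in TRDKO at stage 61, against 48.6, 38.8 and 39.7 in wild type. At stage 54 it had 321, 317 and 386 in TRDKO, against 35.2, 35.1 and 48.9 in wild type. Replicate 3 was the highest TRDKO library here, as in ENSXETG00000017038 and ENSXETG00000015075. ENSXETG00000017038 had 221, 223 and 203 in TRDKO at stage 61, against 18.8, 18.3 and 15.9 in wild type. The stage 54 values were 131, 111 and 159 in TRDKO, against 13.7, 25.6 and 23.7 in wild type. Its mean was higher in TRDKO and lower in wild type at the later stage. The genotype ratio was 12.2 at stage 61 and 6.37 at stage 54. The wild-type change was not called (log2 change -0.23, edgeR adjusted p = 0.42), and the wild-type libraries of the 2 stages overlapped. ENSXETG00000002525, with the lowest stage 61 ratio at 4.07, had 47, 47 and 52 in TRDKO at that stage, against 12.1, 13.1 and 10.6 in wild type. At the earlier stage the counts were 60.3, 59 and 54.9 in TRDKO, against 11.7, 9.45 and 11 in wild type. Its genotypes did not overlap at either stage.

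Of the others, ENSXETG00000015075 departed in the opposite direction. It had 1495, 1502 and 1576 in TRDKO at stage 61, against 278, 269.7 and 274 in wild type. At stage 54 it had 856, 818 and 1579.7 in TRDKO, against 166, 211 and 189 in wild type. Replicate 3 of stage 54 stood at the level of the TRDKO libraries of stage 61. ENSXETG00000032904 had the highest read counts of the 24 in wild type, with 5181, 5052 and 5072 in TRDKO at stage 61, against 987, 934 and 952 in wild type. At the earlier stage the counts were 8248, 8066 and 4893 in TRDKO, against 1567, 1752 and 1643 in wild type. Here too replicate 3 was closer to the stage 61 libraries of TRDKO than replicates 1 and 2 were. This did not hold across the 24 genes. In ENSXETG00000022690 and ENSXETG00000006294, among others, replicates 1 and 2 were the closer ones. ENSXETG00000012727 had 148, 168 and 121 in TRDKO at stage 54, against 27.4, 36.4 and 39.5 in wild type, and its ratio was 4.53 at stage 61 and 4.23 at stage 54.

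The low values of replicate 3 were not seen in these genes alone. Replicate 3 was under 50% of replicates 1 and 2 in 16 of the 24 (66.7%), against 101 (79.5%) of the 127 genes that passed both genotype thresholds without being flat between stages. Among all 11109 genes with a TRDKO mean of at least 50 at stage 54 the count was 947 (8.52%). Replicate 3 was more than 2-fold above them in 0 of the 24 genes, 4 of the 127 (3.15%) and 605 of the 11109 (5.45%). It was under 2-fold of wild type in 8 of the 24, in 33.9% of the 127 and in 81.4% of the 11109. It was 4-fold or more above wild type in 11 of the 24, in 48.0% of the 127 and in 6.48% of the 11109. The 24 and the 127 were chosen on the genotype ratio with replicate 3 in the stage 54 mean, and the 11109 were not chosen on that ratio. These shares are therefore a description. What set this library apart was not tested.

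Each library was next left out of the rule in turn, and the genes chosen by the other 11 were read in the library that had not been used. With TRDKO stage 54 replicate 1 left out, 22 genes met the rule and all 22 were 4-fold or more above wild type in replicate 1. With replicate 2 left out, this held for all 21 genes that met the rule. With replicate 3 left out, 35 genes met the rule, 20 of them among the 24, and in replicate 3 only 9 were 4-fold or more above wild type, 13 were 2- to 4-fold and 13 were under 2-fold, with a median of 2.36-fold. No gene fell under 2-fold in any of the other 11 libraries when that library was held out, and 20 to 23 genes in each were 4-fold or more. In each of these ratios only the left-out library was outside the choice. The mean of the other genotype, against which it was set, was one the rule had used. The counts are therefore not a separate test of the genotype difference. They are also not like for like among the TRDKO libraries of stage 54. With replicate 1 or 2 left out, a gene low in replicate 3 passed only on a high value in the other, and these 2 were nearly equal in the 24 genes. With replicate 3 left out, the TRDKO mean of stage 54 rested on replicates 1 and 2 alone.

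**Figure D3:**
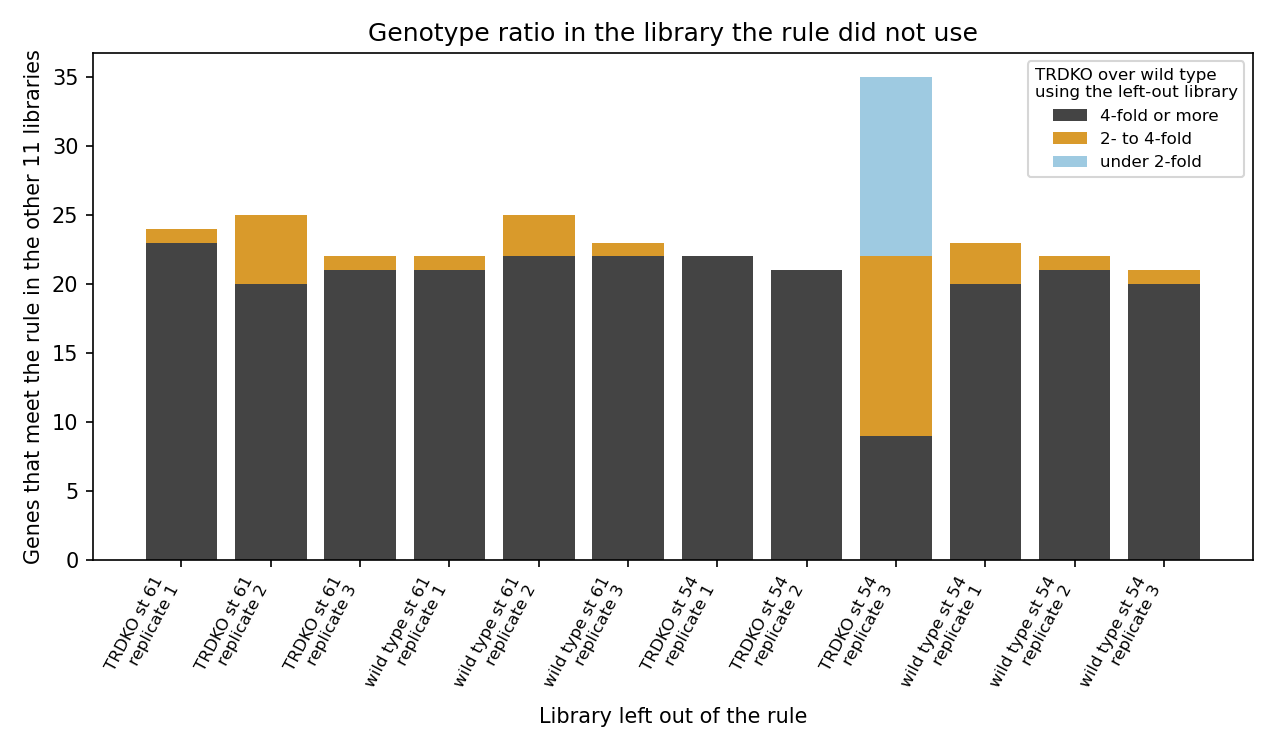
For each library left out of the rule (x axis), the bar gives the number of genes that met the rule in the other 11 libraries, divided by their TRDKO to wild-type ratio in the left-out library. Bars reach 21 to 25 genes with no gene under 2-fold, except for TRDKO stage 54 replicate 3, where 13 of 35 genes are under 2-fold.

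Membership moved with single libraries. The rule gave 21 to 25 genes without any 1 library other than TRDKO stage 54 replicate 3, and 8 of the 24 genes met it whichever library was left out. These were ENSXETG00000008317, ENSXETG00000015075, ENSXETG00000008529, ENSXETG00000030999, ENSXETG00000015374, ENSXETG00000017038, ENSXETG00000012642 and ENSXETG00000007733. They were not all high in TRDKO stage 54 replicate 3. ENSXETG00000008317, ENSXETG00000012642, ENSXETG00000008529 and ENSXETG00000015374 were at 0.714-, 0.949-, 1.94- and 2.36-fold of the wild-type mean there, and the others at 4-fold or more. Leaving out 1 library does not expose a low replicate 3, since replicates 1 and 2 were nearly equal. Without replicate 3, 15 genes were gained and 4 of the 24 were lost. With each library scaled by its total reads alone, 23 genes met the rule, of which 7 were among the 24.

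Between stages, the ratio of stage 61 to stage 54 in TRDKO had a median of 0.982, with 12 genes higher and 12 lower at stage 61. In wild type it had a median of 1.09, with 13 higher and 11 lower. Without replicate 3 of stage 54 the median ratio in TRDKO was 0.861, with 8 genes higher and 16 lower at stage 61. The ratio then stayed within 2-fold for 20 genes, and 4 genes were more than 2-fold lower. These 4, the ones lost from the rule, were ENSXETG00000031325 at 0.495, ENSXETG00000005947 at 0.493, ENSXETG00000018416 at 0.470 and ENSXETG00000000936 at 0.390. In the opposite direction ENSXETG00000006294 had a ratio of 1.95 with replicate 3 and 1.36 without it.

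**Figure D4:**
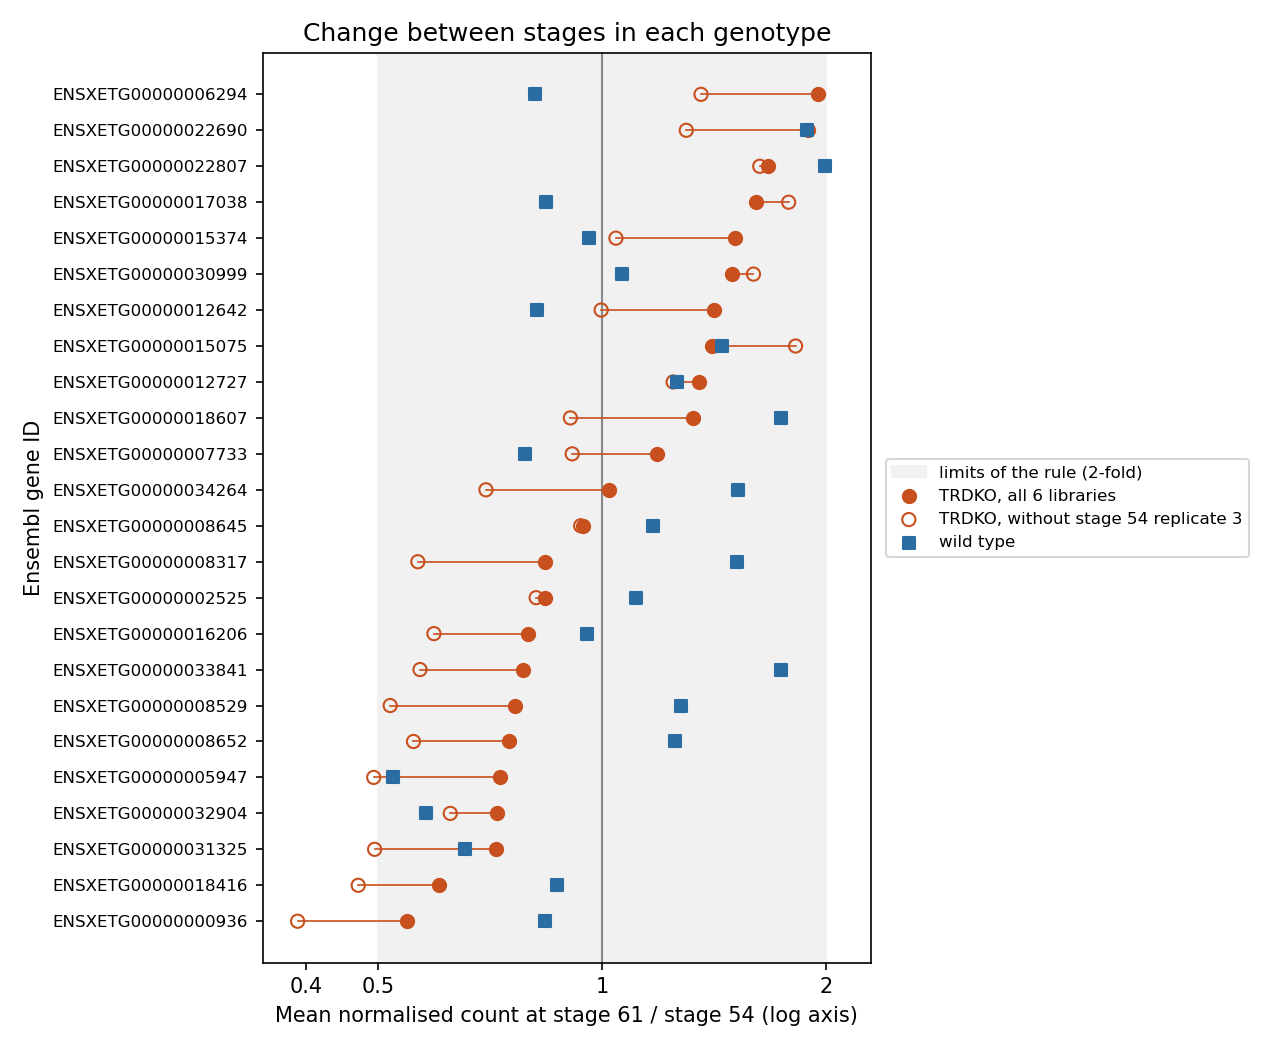
Ratio of the mean normalised count at stage 61 to that at stage 54 (log axis) for the 24 genes in TRDKO (filled circles), in TRDKO without stage 54 replicate 3 (open circles) and in wild type (squares), with the 2-fold limits of the rule shaded. Leaving replicate 3 out moves most TRDKO points to the left, and 4 of them past the lower limit.

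By edgeR at an adjusted p under 0.05, with no limit on the size of the change, TRDKO intestine was higher at stage 61 than at stage 54 for 4 of the 24 genes and lower for 1, where 30.0% and 32.2% of all genes tested were called. The genes called higher were ENSXETG00000022807, ENSXETG00000030999, ENSXETG00000012727 and ENSXETG00000017038, and the 1 called lower was ENSXETG00000032904. In wild type 3 were higher at stage 61, namely ENSXETG00000015075, ENSXETG00000022807 and ENSXETG00000008645, and 1 was lower, ENSXETG00000032904, where 43.0% and 37.4% of genes tested were called. The median log2 change was -0.01 in TRDKO and 0.17 in wild type over the 24, beside 0.00 and 0.13 over all genes tested. The rule limited these changes to 2-fold in the group means, and nothing is read from the counts. All called genes were among the 8 in which replicate 3 was over 50% of the other TRDKO libraries. The fit used 1 spread per gene over all 4 groups, so a low replicate 3 also widened the errors of contrasts without it. For ENSXETG00000031325 the wild-type log2 change was -0.57 ± 0.68 (SE), although its wild-type coefficients of variation were 3.49% at stage 61 and 5.54% at stage 54. A gene that was not called is therefore not shown to be unchanged.

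These counts changed with single libraries. Without TRDKO stage 54 replicate 3, the genes called in TRDKO were 7 higher and 12 lower, and those in wild type 7 in all. Without TRDKO stage 61 replicate 3 the count in TRDKO was 3. In wild type it was 2 without stage 54 replicate 1 and 2 without any 1 of the 3 stage 61 libraries. The shares of all genes tested in these fits are not given. Whether the calls changed alike over all genes is therefore not shown, and nothing is read from the changes in count.

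The genotype difference was called larger at stage 61 than at stage 54 for 1 gene (30.0% of genes tested) and smaller for 2 (37.5% of genes tested), by edgeR's test of the interaction of genotype and stage. The median of this difference of log2 ratios was -0.19 over the 24 genes and -0.18 over all genes tested. Without TRDKO stage 54 replicate 3 the count was 14, of which 4 were larger and 10 smaller. It was 0 without wild-type stage 54 replicate 2, where edgeR's unadjusted p was under 0.05 for 2 genes. It was 1 without TRDKO stage 54 replicate 1 or 2, TRDKO stage 61 replicate 1, wild-type stage 61 replicate 2 or 3, or wild-type stage 54 replicate 1 or 3. The shares of all genes tested without these libraries are likewise not given, and nothing is read from the changes in count.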

How the data were processed

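Whole-intestine RNA of 12 libraries was sequenced, and the authors deposited raw read counts per gene, made with STAR 2.6.1c and featureCounts 1.6.3 on Ensembl gene models. How strand and reads with several matches were treated is not given in the sources used here. The 24 genes and all comparisons were chosen with earlier results of these data known. Counts were scaled by median-of-ratios size factors for the rule and all printed levels. Tests used edgeR 4.0.16 in R 4.3.3 (filterByExpr, TMM scaling, quasi-likelihood F-test, a mean for each of the 4 groups over all 12 libraries, Benjamini-Hochberg adjustment over 13954 genes), checked on simulated counts. Alternatives were DESeq2 1.42.0, other scalings, no filter, the 6 libraries of a comparison, a replicate term, other thresholds, and leaving out each library. Genes named by rule were the 2 with the highest smaller genotype ratio among those with wild-type means of at least 10; other genes were named after their values were seen. For genes with at most 10 wild-type reads in a group, a ratio of summed reads with an exact 95% interval took the place of a planned lower limit. Libraries of a group are described as biological replicates, and how many animals each held is not given for them. In its section on RNA extraction and RT-PCR the paper combined tissue of several animals of a genotype. Whether each library was such a pool is not stated, and the spread between libraries may be a spread between pools. The main p-values rest on 1 spread between libraries per gene, estimated over all 4 groups. They do not measure the spread of the 2 compared groups alone, and the groups differed in spread.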

Additional observations from a re-analysis of the deposited data

Results flagged for a closer look

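For 3 genes the genotype difference itself differed between stages by edgeR's interaction test, adjusted over all genes tested. It was larger at stage 61 for 1 gene and smaller for 2, where 30.0% and 37.5% of all genes tested were called. The rule used all 4 group means, so these calls are a description. ENSXETG00000017038 had a log2 difference between TRDKO and wild type that was 0.91 ± 0.29 (SE) larger at stage 61 than at stage 54 (edgeR adjusted p = 0.016). For ENSXETG00000022807 the difference at stage 61 minus that at stage 54 was -0.30 (edgeR adjusted p = 0.0411), and for ENSXETG00000008645 it was -0.36 (edgeR adjusted p = 0.0491). The genotypes did not overlap at either stage in any of the 3 genes, with TRDKO higher in all 3 libraries. Of all genes tested, 38.8% had no overlap in this direction at stage 61 and 34.9% at stage 54. The rule chose the genes at 4-fold or more at both stages, so the lack of overlap does not bear on the interaction. Over the 17 alternatives the call on ENSXETG00000017038 was lost in 3, and with total reads alone its value was -0.28 (edgeR adjusted p = 0.342). The call on ENSXETG00000022807 was lost in 11 of 17 and that on ENSXETG00000008645 in 12 of 17, DESeq2 and RLE size factors among them, with values of -1.50 to -0.16 and -1.56 to -0.13 and adjusted p up to 0.321 and 0.514. Without TRDKO stage 54 replicate 3 all 3 were called, at 1.06, -0.33 and -0.37. The median over all genes tested was -0.18. The rule bounded how far each genotype could change, and these genes are among those whose 3 TRDKO libraries of stage 54 lay close together.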

How the results depend on the processing

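All 24 genes were called higher in TRDKO at stage 61 under every setting. At stage 54 this held under every setting except the fit on 6 libraries, which called 23 and did not test the other. The rule had chosen the genes at 4-fold or more on these libraries, so the calls were nearly set in advance and nothing is read from them. In the main fit 14.1% of all genes tested were called higher at stage 61 and 21.7% at stage 54. The rule gave 24 genes with TMM scaling (23 shared), 23 with total reads alone (7 shared), 27 with group medians (17 shared), 48 at a ratio of 3, 10 at a ratio of 8, 18 at a minimum of 100, and 21 to 35 without 1 library. Members called between stages in wild type (4) were 7 with 6 libraries, 2 with RLE size factors, 11 with total reads alone and 2 to 7 without 1 library. Those in TRDKO (5) were 3 with 6 libraries and 3 to 19 without 1 library. Those called by the interaction (3) were 1 with DESeq2, 10 with total reads alone and 0 to 14 without 1 library. Shares of all genes tested are given for the main fit only, so these counts describe the settings and not the genes. Total reads alone moved the median log2 change of all genes tested between stages in wild type to 1.33, against 0.13 with TMM, and the median genotype difference at stage 61 to -0.75, against -0.11. Of 383 recomputed genotype ratios, 68 moved by more than the SD of the TRDKO libraries divided by the wild-type mean, and the lowest was 2.58. That 0 changed direction follows from the rule, which chose ratios of 4 or more. At stage 54 a low replicate 3 widened that SD, so large moves could count as none. The ratio of ENSXETG00000008529 there was 36.9, and 56.2 with total reads alone, and was counted as not moved. The larger genotype difference of ENSXETG00000017038 at stage 61 turned to -0.28 with total reads alone, a scaling that moved the median of all genes for this comparison to -1.38, against -0.18. For libraries with the same replicate number in different groups, correlations of deviations ran from -0.029 to 0.030. The labels do not say whether such libraries shared anything beyond the number. The replicate block called 24 members at each stage, 3 between stages in wild type, 6 in TRDKO and 2 by the interaction. Depth limited the ratios of the genes with 10 or fewer wild-type reads in a group.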
